A study of Mus musculus with 8 samples.

Results

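The miR-17-92 and miR-106b-25 clusters were examined in cultured mouse chondrocytes, which build and maintain joint cartilage, through the 9 mature miRNAs that are commonly named as the guide arms of their hairpins. The 9 members were taken by name from a table of 1966 mature miRNAs, of which 1003 had at least 1 count. They were the 6 guide arms of miR-17-92 (mmu-miR-17-5p, mmu-miR-18a-5p, mmu-miR-19a-3p, mmu-miR-20a-5p, mmu-miR-19b-3p and mmu-miR-92a-3p) and the 3 guide arms of miR-106b-25 (mmu-miR-106b-5p, mmu-miR-93-5p and mmu-miR-25-3p). The articular chondrocytes were isolated from the femoral head cartilage of wild-type mice at 3 weeks of age and kept for 24 h with vehicle (n = 4 libraries) or with interleukin-1β (IL-1β, a cytokine of inflamed joints) at 1 ng/ml (n = 4 libraries). Both groups received the same serum-containing medium. The labels did not state whether the 4 libraries of a group came from separate mice or cultures, so that p-values refer to the spread between these libraries, which may be technical.

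Each arm of a miRNA hairpin, 5p and 3p, can yield a mature miRNA that is loaded into an Argonaute protein, where bases 2 to 8, the seed, pair with target mRNAs. The retained arm is called the guide, and the other arm, often called the passenger, is usually degraded. miR-17-92 is transcribed as 1 long RNA that is induced by MYC and E2F factors in dividing cells and was named an oncomir after its role in lymphoma, and loss of a copy of the human cluster causes Feingold syndrome, which affects the skeleton. miR-106b-25 lies within Mcm7, the gene of a subunit of the replicative helicase. Known targets of these clusters include the cell cycle inhibitor Cdkn1a and the proapoptotic gene Bcl2l11.

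The mature sequences are shown because they set which members share targets and which can be confused in counting. They were taken from RefSeq (GRCm38.p6), are written 5′ to 3′, and have the seed in capitals.
mmu-miR-17-5p: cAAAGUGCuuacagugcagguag
mmu-miR-20a-5p: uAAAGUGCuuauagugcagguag
mmu-miR-106b-5p: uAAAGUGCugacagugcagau
mmu-miR-93-5p: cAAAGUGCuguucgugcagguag
mmu-miR-18a-5p: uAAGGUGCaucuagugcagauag
mmu-miR-19a-3p: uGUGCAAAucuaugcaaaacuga
mmu-miR-19b-3p: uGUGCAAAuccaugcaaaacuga
mmu-miR-92a-3p: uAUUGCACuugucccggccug
mmu-miR-25-3p: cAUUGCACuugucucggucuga
The 9 members thus fell into 4 seed groups: 4 members with the miR-17 seed from both clusters, miR-18a-5p alone, the 2 miR-19 miRNAs, and the pair of miR-92a-3p and miR-25-3p, again 1 from each cluster.

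Several of these sequences have close relatives elsewhere in the genome, mostly in the paralogous miR-106a-363 cluster on chromosome X. The relatives that differ from a member by at most 2 bases are shown in the same way.
mmu-miR-106a-5p: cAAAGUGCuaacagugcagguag
mmu-miR-20b-5p: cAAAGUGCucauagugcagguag
mmu-miR-18b-5p: uAAGGUGCaucuagugcuguuag
mmu-miR-92b-3p: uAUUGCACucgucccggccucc
With positions counted from 1 at the 5′ end and the member's base given first, miR-106a-5p differed from miR-17-5p by U10A alone. miR-20b-5p differed from miR-17-5p by U10C and C12U. miR-18b-5p differed from miR-18a-5p by A18U and A20U, and miR-92b-3p differed from miR-92a-3p by U10C and G21C over the 21 shared positions. Between members, miR-19a-3p and miR-19b-3p differed by U11C, and miR-17-5p and miR-20a-5p by C1U and C12U. How reads that fit several places were assigned was not stated in the sources used here, so counts of these near-identical miRNAs are uncertain.

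The 6 hairpins of miR-17-92 lie within 836 bases of chromosome 14 (115043671 to 115044506, plus strand, GRCm38) in the order Mir17, Mir18, Mir19a, Mir20a, Mir19b-1 and Mir92-1. All 6 are inside an exon of the long non-coding RNA gene Mir17hg (115042879 to 115046727). The 3 hairpins of miR-106b-25 lie within 498 bases of chromosome 5 (138165321 to 138165818, minus strand) in the order Mir106b, Mir93 and Mir25. Mir106b is intronic in both Mcm7 transcripts that span it, and Mir93 and Mir25 are exonic in 1 of the 3 Mcm7 transcripts that span them and intronic in the others (GENCODE). Both miR-19b-3p and miR-92a-3p have a second locus in miR-106a-363 on chromosome X (Mir19b-2, 52741983 to 52742066, and Mir92-2, 52741838 to 52741928, minus strand). The other 7 members have 1 locus each.

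Library totals ranged from 616475 to 1568367 counts, so that a single count equalled 0.638 to 1.62 CPM (counts after scaling the library total to 1000000) and the 3 counts that an observed 0 allows equalled 1.91 to 4.87 CPM. The chondrocyte miRNAs miR-140 and miR-455 (4 arms) took 15.6% to 16.8% of counts in the vehicle libraries and 12.4% to 15.3% in the IL-1β libraries, so that this summed share was lower in every IL-1β library. Of the 4 arms, miR-455-3p alone had groups that did not overlap, at 5053 to 5585 normalized CPM with vehicle and 3143 to 4779 with IL-1β (log2 fold change -0.35, edgeR adjusted p = 0.0691). Haematopoietic cells also express miR-17-92, and the 6 haematopoietic markers took 0.00441% to 0.00638% of counts with vehicle and 0.00260% to 0.00471% with IL-1β. Among these 6, miR-142a-3p, miR-223-3p, miR-144-3p and miR-451a were at 0 counts in all 8 libraries, and miR-142a-5p had 4 counts in 1 library. The sixth, the lymphocyte miRNA miR-150-5p, held the other 370 counts, at 43.5 to 59.98 normalized CPM with vehicle and 25.6 to 45.5 with IL-1β (log2 fold change -0.51, edgeR adjusted p = 0.196), which is the range of miR-17-5p and above the scarcer members. Its part in the members' values was not tested. The 3 muscle markers had 0 counts. Of the 2 endothelial markers miR-126a-3p had 8 counts and miR-126a-5p 0, and of the 6 epithelial markers miR-205-5p had 13 counts, miR-200b-3p and miR-141-3p 3 each, miR-200a-3p 1, and miR-200c-3p and miR-429-3p 0. IL-1β replicate 4 stood apart: over the 195 miRNAs that averaged 50 counts or more, its log2 deviations from the other 3 libraries of its group had an SD of 0.402, against 0.151 to 0.233 for the other 7 libraries. Results for the members are also given without this library. In a bulk library, fewer cells of a type and less RNA per cell cannot be told apart.

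The abundance of the members was compared first. The 9 members together took 11.5% to 11.8% of the counts of each library, and nearly all of this was a single miRNA. Of 929082 member counts, 918339 were miR-92a-3p, which had rank 3 among 564 tested miRNAs. All values per library below are normalized CPM, that is, CPM after scaling the library totals for composition (trimmed mean of M values, TMM).

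miR-92a-3p, a miRNA that restrains angiogenesis and shares its seed with miR-25-3p, was at 114985.5, 116252.8, 114365 and 114398 normalized CPM in vehicle replicates 1 to 4. In IL-1β replicates 1 to 4 it was at 111669, 109985.3, 117384 and 123517 normalized CPM. The IL-1β libraries lay on both sides of the vehicle libraries, with replicates 1 and 2 below all 4 and replicates 3 and 4 above all 4. miR-25-3p was at 901, 1017, 974.6 and 885 normalized CPM with vehicle and at 945, 905, 1009.7 and 949 with IL-1β, so that the ranges of both groups overlapped almost completely. miR-93-5p, a miR-17 seed relative that targets Cdkn1a, was at 282, 304, 336 and 312 normalized CPM with vehicle and at 341, 315, 342 and 372 with IL-1β. Of the IL-1β libraries, 3 exceeded every vehicle library, whereas IL-1β replicate 2 lay within the vehicle range.

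The remaining members were scarce, each at most 52.8 normalized CPM in any library. miR-17-5p, which gives the cluster its name, was at 26.5, 45.4, 50.6 and 35.8 normalized CPM with vehicle and at 52.8, 48.0, 32.2 and 35.1 with IL-1β. miR-20a-5p, its close relative, was at 12.7, 10.7, 11.3 and 9.35 normalized CPM with vehicle and at 11.2, 5.90, 10.2 and 7.52 with IL-1β. The libraries of the 2 groups overlapped for both miRNAs.

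The miR-19 miRNAs carry much of the oncogenic activity of the cluster in lymphoma. miR-19b-3p was at 11.7, 7.34, 8.12 and 3.12 normalized CPM with vehicle and at 9.60, 14.3, 2.92 and 3.76 with IL-1β, a wide spread in both groups. miR-19a-3p had 5 counts in all, 1 in vehicle replicate 1, 3 in IL-1β replicate 2 and 1 in IL-1β replicate 4, and was at 0 in the other 5 libraries.

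miR-106b-5p was at 3.18, 3.34, 6.87 and 14.02 normalized CPM with vehicle and at 4.799, 7.59, 4.38 and 6.27 with IL-1β, so that its highest value was in vehicle replicate 4. miR-18a-5p had 2, 1, 1 and 0 counts with vehicle and 2, 5, 5 and 0 with IL-1β, 16 counts in all. At this depth its levels, 0 to 2.12 normalized CPM with vehicle and 0 to 7.31 with IL-1β, were close to the counting limit.

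**Figure D1:**
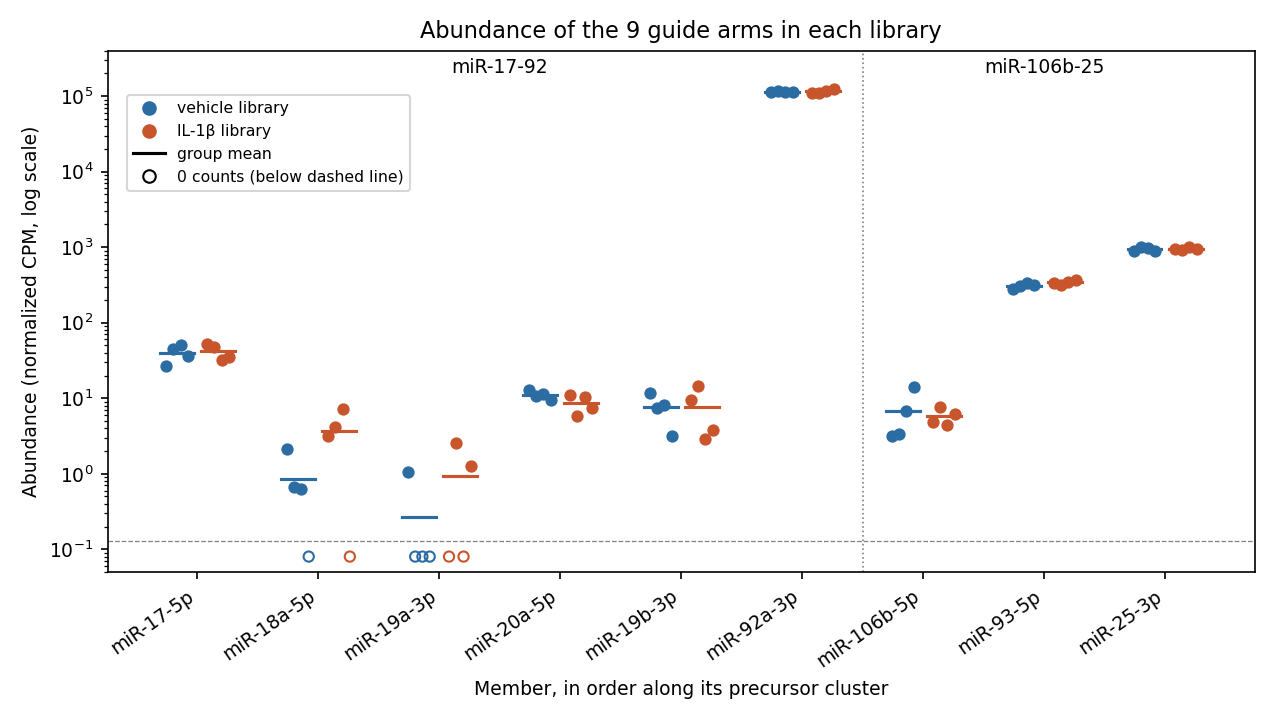
Abundance of each member (normalized CPM, log scale) in the 4 vehicle libraries (blue) and the 4 IL-1β libraries (orange), with group means as lines and libraries at 0 counts as open points below the dashed line. miR-92a-3p lies between 109985.3 and 123517 normalized CPM, while miR-18a-5p and miR-19a-3p reach at most 7.31 and 2.53 normalized CPM.

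Ordered by their mean over the 8 libraries, the members were miR-92a-3p (115320 ± 4071 normalized CPM, SD, n = 8), miR-25-3p (948 ± 49.7), miR-93-5p (326 ± 27.9), miR-17-5p (40.8 ± 9.63), miR-20a-5p (9.86 ± 2.21), miR-19b-3p (7.61 ± 4.19), miR-106b-5p (6.31 ± 3.51), miR-18a-5p (2.27 ± 2.55) and miR-19a-3p (0.605 ± 0.938). The order was the same when these levels were divided by the length of the mature miRNA, which was 21 to 23 nt. The first 4 and miR-20a-5p were separated from each other without overlap of their library ranges. Among miR-20a-5p, miR-19b-3p, miR-106b-5p, miR-18a-5p and miR-19a-3p, neighbors in the order overlapped, and miR-19b-3p exceeded miR-106b-5p in only 5 of 8 libraries. Ligation and amplification favor some sequences over others, so that the level of a miRNA in a library is not proportional to its molar amount, and levels of different miRNAs are compared here as library abundances only.

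Within the miR-17-92 cluster, whose members are cut from 1 transcript, miR-92a-3p made up 99.95% of the guide arm counts (99.93% to 99.96% by library). Its level was 2827-fold that of miR-17-5p, 11702-fold that of miR-20a-5p and 15161-fold that of miR-19b-3p. Without miR-92a-3p the other 5 members summed to 59.3 ± 9.98 normalized CPM (SD, n = 4) in the vehicle libraries and 63.0 ± 15.0 in the IL-1β libraries. In miR-106b-25 the levels were closer. miR-25-3p made up 74.4% of the guide arm counts, miR-93-5p 25.2% and miR-106b-5p 0.469%.

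The second locus of miR-92a-3p and of miR-19b-3p makes the share from chromosome 14 unknown, since both loci give the same mature sequence. The arms opposite to the guide differ between the loci and can be placed. miR-92a-1-5p from chromosome 14 had 689 counts in all, whereas miR-92a-2-5p from chromosome X had 1 count. miR-19b-1-5p and miR-19b-2-5p had 1 and 0 counts. In the table the listed length of miR-92a-3p (42 nt) and miR-19b-3p (46 nt) was 2 times their mature length, which marks both loci as part of 1 entry. Of the 8 library counts of miR-92a-3p, 7 were odd, as were 5 of those of miR-19b-3p, so these counts were not simply doubled for the 2 loci.

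The miR-106a-363 cluster had very few counts that could be assigned to it alone. Of its 10 arms other than miR-19b-3p and miR-92a-3p, 8 were at 0 counts in all 8 libraries, including miR-106a-5p, miR-18b-5p and miR-20b-5p, and the 10 together had 9 counts. A count of 0 allows up to 1.91 CPM in the deepest library and 4.87 CPM in the shallowest. miR-363-3p, which carries the miR-92a seed, had 8 of the 9 counts. By contrast miR-92b-3p, the relative of miR-92a-3p from a separate locus on chromosome 3 (89227126 to 89227147, minus strand), was abundant, at 17731 to 20422 normalized CPM with vehicle and 16755 to 20302 with IL-1β, rank 9 of 564. The other relatives with this seed, miR-32-5p and miR-367-3p, had 1 and 0 counts.

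By seed, the pair of miR-92a-3p and miR-25-3p summed to 115945 ± 925 normalized CPM (SD, n = 4) in the vehicle libraries and 116591 ± 6153 in the IL-1β libraries. The 4 members with the miR-17 seed summed to 366 ± 33.0 and 399 ± 20.01 normalized CPM, and most of this was miR-93-5p from chromosome 5 rather than a member of miR-17-92. The 2 miR-19 miRNAs summed to 7.83 ± 3.94 and 8.60 ± 6.17 normalized CPM. Abundance of the members in these libraries was thus concentrated in the miR-92a seed group, and nearly all of it was miR-92a-3p itself.

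The arms of each hairpin were compared next, because the names guide and passenger come from convention and not from these cells. For 2 of the 9 hairpins, Mir18 and Mir106b, the arm taken as the guide was the rarer one in all 8 libraries. Both hairpins are shown with the 5p arm and then the 3p arm in capitals.
Mir18: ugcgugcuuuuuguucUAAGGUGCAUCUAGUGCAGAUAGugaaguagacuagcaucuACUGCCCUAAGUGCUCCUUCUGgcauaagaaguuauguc
Mir106b: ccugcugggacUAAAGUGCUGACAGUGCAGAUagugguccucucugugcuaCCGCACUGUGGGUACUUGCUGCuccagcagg
miR-18a-3p had 860 counts against 16 of miR-18a-5p, 53.8-fold as many. The 5p arm held 1.83% of the 876 counts of both arms (95% interval 1.05% to 2.95%, Clopper-Pearson, counting error only). miR-106b-3p had 2730 counts against 48 of miR-106b-5p, 56.9-fold as many, and the 5p arm held 1.73% of 2778 counts (1.28% to 2.28%).

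The other hairpins kept the conventional order. The guide arm held 99.93% of the counts of both arms for Mir92-1, 91.9% for Mir93, 90.2% for Mir25, 92.9% of 85 counts for Mir20a and 98.5% of 66 counts for Mir19b-1. For Mir92-1 and Mir19b-1 the counts of the 3p arm include both loci, so that these shares are not specific to the hairpin. For Mir19a all 5 counts were of the 3p arm. Mir17 was close to balance, with 58.9% of 572 counts from the 5p arm (54.8% to 63.0%), and the 5p arm was higher in 7 of 8 libraries and equal in the other. Counting both arms, miR-18a-3p thus exceeded every guide arm of miR-17-92 other than miR-92a-3p in all 8 libraries. miR-106b-3p lay near miR-93-5p, at 349 ± 10.7 against 308 ± 22.3 normalized CPM with vehicle and 332 ± 22.8 against 342 ± 23.3 with IL-1β (SD, n = 4).

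**Figure D2:**
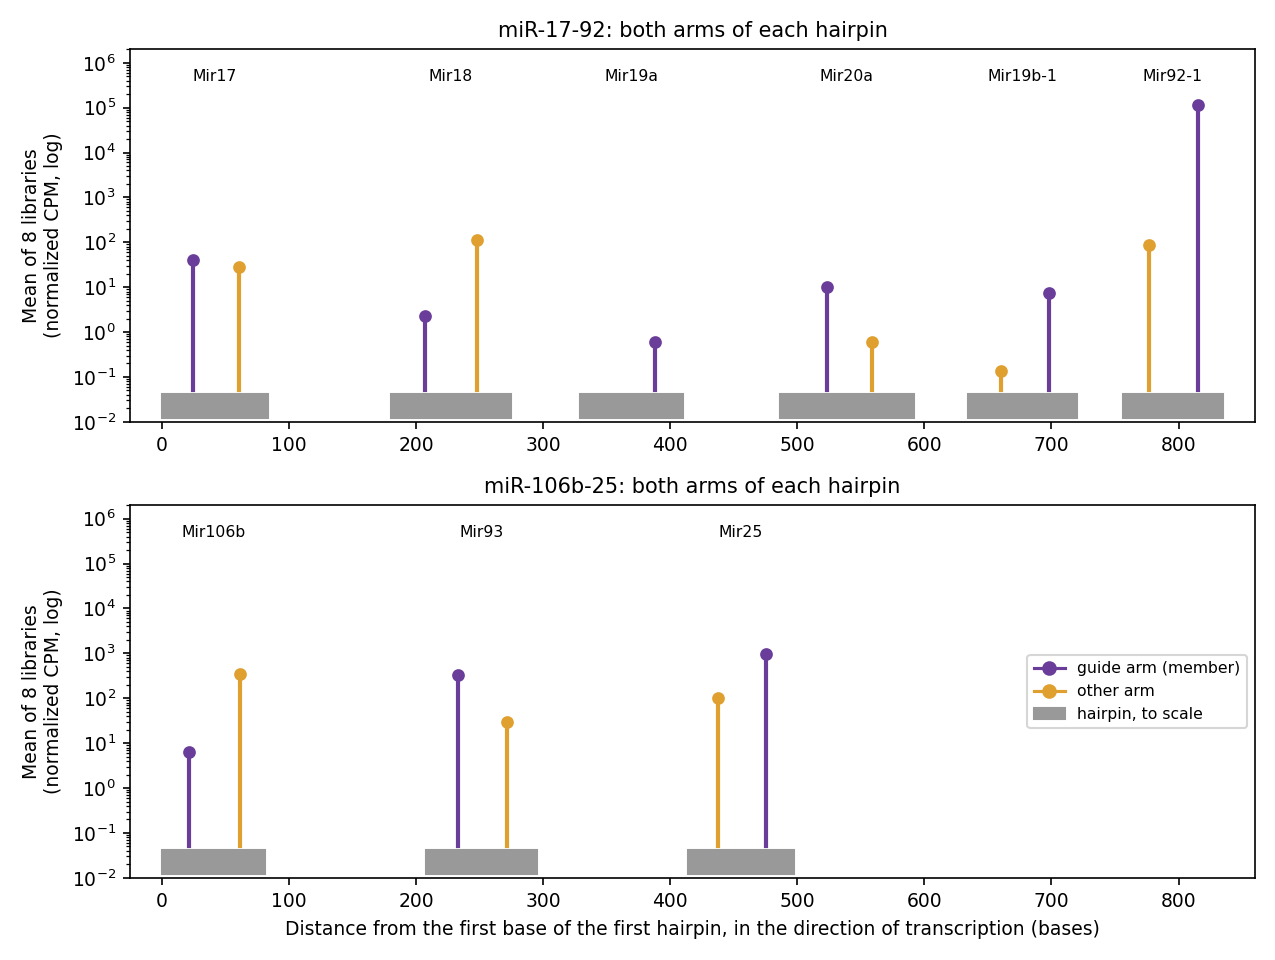
Mean abundance over the 8 libraries (normalized CPM, log scale) of the guide arm (purple) and the other arm (yellow), placed at their distance in bases along each cluster in the direction of transcription, with hairpins as grey boxes to scale. The yellow arm is the taller of the pair for Mir18 and Mir106b, and miR-92a-3p at the end of miR-17-92 exceeds every other arm. miR-19a-5p, at 0 counts, is not drawn.

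The response to IL-1β was tested in a model fitted to all 564 miRNAs that exceeded 1 CPM in at least 4 of 8 libraries (edgeR quasi-likelihood test). Calls required a Benjamini-Hochberg adjusted p under 0.05 together with an absolute log2 fold change over 0.3. Of the 9 members, 8 passed the filter and 0 were called, while 11 of all 564 miRNAs were called (1.95%). At an unadjusted p under 0.05 edgeR had 1 of the 8 members (miR-18a-5p), beside 63 of all 564 miRNAs. DESeq2 called 0 members, with 0 at an unadjusted p under 0.05, beside 12 calls over all miRNAs. It gave no adjusted p for miR-18a-5p, miR-20a-5p, miR-19b-3p and miR-106b-5p, so that it could not have called these members. The groups overlapped for all 8 tested members, whereas for 43 of the 564 miRNAs (7.62%) the libraries of both groups did not overlap. The log2 fold changes of the 8 members had a median of 0.02 (6 positive, 2 negative), beside a median of 0.01 over all 564. The positive values include that of miR-18a-5p, the member at an unadjusted p under 0.05, whose sign was favored by the filter as described below.

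The precision differed widely between members, since it followed their counts. For miR-92a-3p the means were 115000.3 ± 882 normalized CPM (SD, n = 4, vehicle) and 115639 ± 6133 (IL-1β), a log2 fold change of 0.01 with a 95% interval of -0.15 to 0.17 (edgeR adjusted p = 0.992). For miR-25-3p they were 944 ± 62.2 and 952 ± 43.1, a log2 fold change of 0.01 with an interval of -0.16 to 0.18 (edgeR adjusted p = 0.992). For both, the interval stayed within the fold change of 0.3 that a call required.

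miR-93-5p was higher by a log2 fold change of 0.15 (interval -0.05 to 0.35, edgeR adjusted p = 0.668), with means of 308 ± 22.3 and 342 ± 23.3 normalized CPM (SD, n = 4), and it was not called. The difference for miR-17-5p was 0.04 (interval -0.39 to 0.47, edgeR adjusted p = 0.992), between 39.6 ± 10.7 and 42.0 ± 9.96 normalized CPM. miR-20a-5p differed by -0.42 (interval -1.11 to 0.28, edgeR adjusted p = 0.753), between 11 ± 1.40 and 8.71 ± 2.44 normalized CPM.

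For the scarcest members the intervals were wide, and changes within them were not detectable at this depth. miR-19b-3p had an interval of -0.83 to 0.99 and miR-106b-5p one of -1.06 to 1.03, on the log2 scale. miR-18a-5p passed the filter through 3 IL-1β libraries and 1 vehicle library, so that its log2 fold change of 1.94 (interval 0.14 to 3.74, edgeR adjusted p = 0.372) was favored in sign by the filter and is not read as a rise. miR-19a-3p did not pass.

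**Figure D3:**
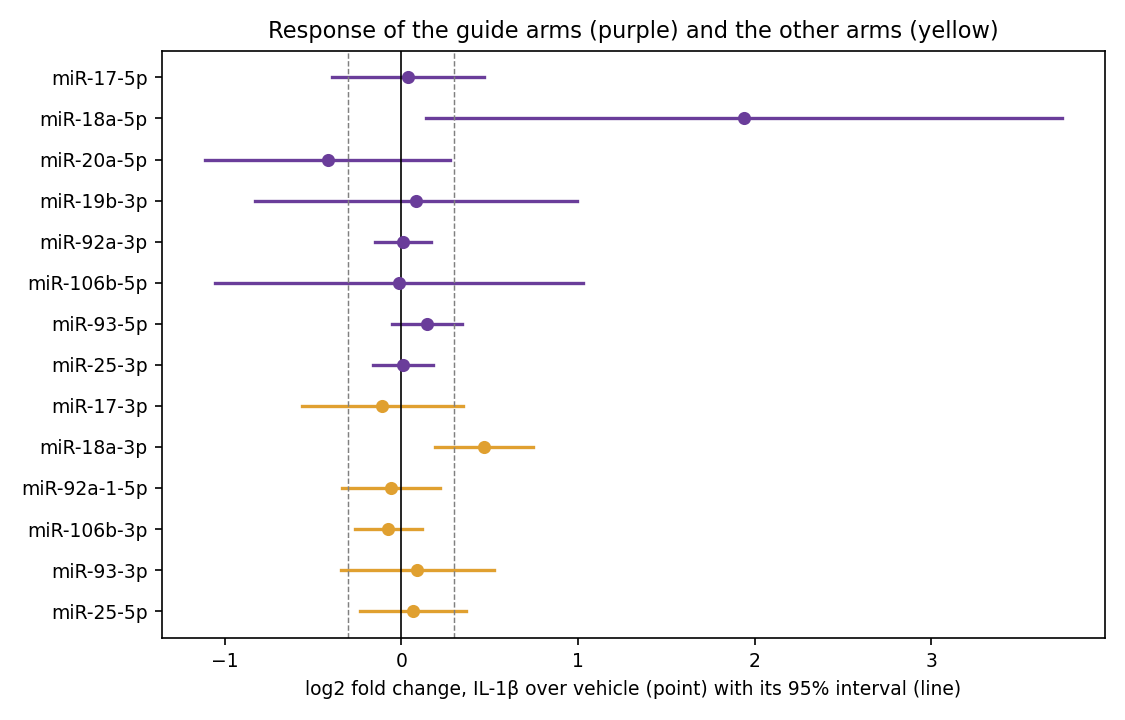
Log2 fold change of IL-1β over vehicle (points) with its 95% interval (lines) for the 8 tested members (purple) and the 6 tested opposite arms (yellow), with dashed lines at -0.3 and 0.3. The intervals of miR-92a-3p (-0.15 to 0.17) and miR-25-3p (-0.16 to 0.18) lie between the dashed lines, and that of miR-18a-5p reaches from 0.14 to 3.74.

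IL-1β replicate 4, the library that stood apart, held the highest miR-92a-3p and miR-93-5p values of all 8 libraries. Without it the log2 fold change of miR-92a-3p was -0.02 (edgeR adjusted p = 0.933), that of miR-93-5p was 0.10 (edgeR adjusted p = 0.742) and that of miR-25-3p was 0.01 (edgeR adjusted p = 0.976). No member was called without it. Among the scarce members, miR-19b-3p moved from a log2 fold change of 0.08 to 0.32 (edgeR adjusted p = 0.896) and miR-18a-5p from 1.94 to 2.34 (edgeR adjusted p = 0.117) when it was left out. miR-17-5p moved from 0.04 to 0.11 (edgeR adjusted p = 0.932), miR-20a-5p from -0.42 to -0.38 (edgeR adjusted p = 0.772) and miR-106b-5p from -0.01 to -0.03 (edgeR adjusted p = 0.976). The part of this library in the values was not tested further.

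Of the 9 opposite arms, 6 passed the filter and 0 were called, with 3 log2 fold changes above 0 and 3 below (edgeR). Over all 564 miRNAs, 11 were called and 63 had an unadjusted p under 0.05, against 1 of these 6 arms at that p. DESeq2 also called 0 of the arms, with 1 at an unadjusted p under 0.05, beside its 12 calls over all miRNAs. The arm at an unadjusted p under 0.05 in edgeR was miR-18a-3p, the arm of Mir18 with more counts. It was at 96.5, 88.1, 81.8 and 117 normalized CPM with vehicle and at 114, 135, 119.8 and 148 with IL-1β. Of the IL-1β libraries, 3 exceeded all vehicle libraries, and IL-1β replicate 1 lay below vehicle replicate 4. The means were 95.8 ± 15.2 and 129 ± 15.4 normalized CPM (SD, n = 4), a log2 fold change of 0.47 (SE 0.135, interval 0.19 to 0.75) with an unadjusted p of 0.00201 and an edgeR adjusted p of 0.0666. It was called in 2 of its 15 alternatives, among them a factor of unwanted variation (log2 fold change 0.49, edgeR adjusted p = 0.00733), and over all 15 the adjusted p ranged from 0.00733 to 0.314. The log2 fold change without IL-1β replicate 4 was 0.42 (edgeR adjusted p = 0.0665).

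The other 5 opposite arms had log2 fold changes between -0.11 (miR-17-3p) and 0.09 (miR-93-3p). miR-106b-3p, the arm of Mir106b with more counts, was at 335 to 361 normalized CPM with vehicle and 308 to 357 with IL-1β. Its log2 fold change was -0.07 (interval -0.27 to 0.12, edgeR adjusted p = 0.807). Outside the 2 clusters, miR-92b-3p differed by -0.05 (interval -0.22 to 0.12, edgeR adjusted p = 0.871), and by -0.10 without IL-1β replicate 4 (edgeR adjusted p = 0.497).

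Because members of a cluster are cut from 1 transcript, each was also set against the sum of the other members of its cluster, a ratio that does not depend on the scaling between libraries. The ratio was defined for the 7 members with counts in every library. The groups overlapped for every ratio. The adjusted p ranged from 0.467 to 0.914 (exact permutation test, 4 against 4 libraries, two-sided, smallest possible p 0.0286, adjusted over 7 ratios). In this test 1 ratio alone could not have reached an adjusted p under 0.2. Most of the 7 ratios would have had to separate completely for an adjusted p under 0.05. The test therefore could not detect a change in a single ratio, and no conclusion is drawn from it. The log2 ratio of miR-93-5p to the rest of miR-106b-25 was -1.63 ± 0.105 (SD, n = 4, vehicle) and -1.49 ± 0.0916 (IL-1β), a difference of 0.14 (exact permutation p = 0.143). That of miR-25-3p was 1.58 ± 0.131 and 1.45 ± 0.0924, a difference of -0.13 (exact permutation p = 0.2). Since miR-106b-5p made up only 0.469% of this cluster, these 2 ratios are nearly mirror images and not separate results. For the members of miR-17-92 other than miR-92a-3p, the rest was almost entirely miR-92a-3p (99.95% of the guide arm counts). In miR-17-92, the log2 ratio of miR-20a-5p to the rest was -13.4 ± 0.183 and -13.7 ± 0.425, a difference of -0.38 (exact permutation p = 0.2). The ratios of the other 4 members differed by -0.14 to 0.09.

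The summed levels of both clusters overlapped between the groups. The members of miR-17-92 summed to 115060 ± 885 normalized CPM (SD, n = 4) in the vehicle libraries and 115702 ± 6119 in the IL-1β libraries, and those of miR-106b-25 to 1260 ± 71.6 and 1301 ± 55.2. These sums are given with no test. The balance of the arms also overlapped between the groups for the 5 hairpins with counts of both arms in every library. The log2 ratio of guide to opposite arm was 3.25 ± 0.0808 and 3.21 ± 0.324 for Mir25, 3.44 ± 0.328 and 3.53 ± 0.214 for Mir93, 0.43 ± 0.156 and 0.58 ± 0.548 for Mir17, 10.4 ± 0.121 and 10.4 ± 0.188 for Mir92-1, and -5.95 ± 1.05 and -5.88 ± 0.446 for Mir106b, with vehicle and IL-1β respectively (SD, n = 4).

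The sequences printed above also differ in base composition. The share of G and C was 57.1% in miR-92a-3p, 52.2% in miR-93-5p, 50% in miR-25-3p and 47.8% in miR-17-5p, the 4 most abundant members. It was 34.8% to 43.5% in the 5 scarce members. Across the 9 members, G and C content and mean abundance had a Spearman correlation of 0.83, whereas across the 491 of 564 tested miRNAs with a RefSeq sequence it was -0.0565. These are descriptions over miRNAs that share libraries and, in part, sequence, and no p is given. Within hairpins, the opposite arm was richer in G and C than the guide arm in 7 of the 8 hairpins with both sequences. It had more counts than the guide in 2 of these 7 (Mir18, 54.5% against 43.5%, and Mir106b, 63.6% against 42.9%) and fewer in the other 5, among them Mir25 (59.1% against 50%) and Mir93 (59.1% against 52.2%). In Mir92-1 the guide arm was the richer one.

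**Figure D4:**
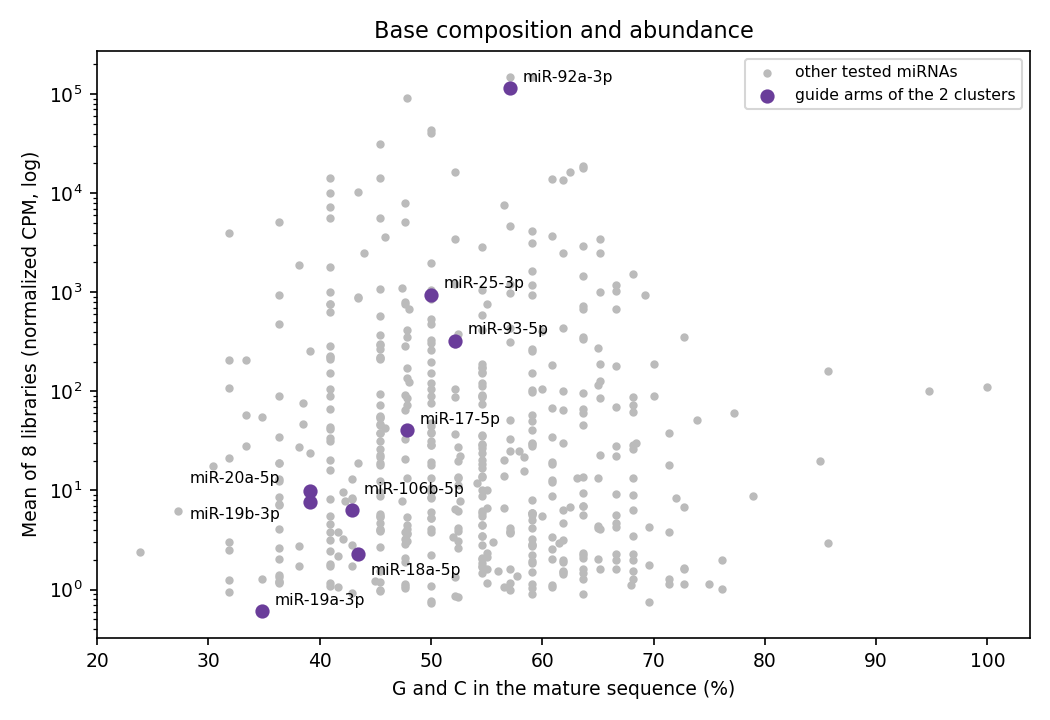
Share of G and C in the mature sequence (%) against the mean abundance over the 8 libraries (normalized CPM, log scale) for the 9 members (purple) and the other tested miRNAs with a RefSeq sequence (grey). The members rise from miR-19a-3p (34.8%) to miR-92a-3p (57.1%), while over all 491 tested miRNAs with a sequence the Spearman correlation is -0.0565.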

How the data were processed

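MicroRNA-Seq of 8 libraries was deposited as 1 table of raw counts per mature miRNA, with 1 column per library. According to the study, the authors trimmed reads with cutadapt, used STAR with its default settings for alignment to mm10, and counted with featureCounts. The processing notes named STAR 2.4.2a. The methods gave a different release of STAR, a GENCODE annotation and a RUVseq correction, whereas the deposited counts were whole numbers under miRBase-style names. Strand and multi-mapping settings were not stated. All columns of counts were matched to samples by name, and groups came from the labels. The table also lists a feature length, which was 2 times the mature length for miR-92a-3p and miR-19b-3p, the members with 2 loci.

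Counts were tested on the whole table with edgeR 4.0.16 in R 4.3.3 (robust quasi-likelihood fit, TMM factors 0.932 to 1.04, group as the only term), after a filter of over 1 CPM in at least 4 libraries. The SE is the log2 fold change divided by the square root of F. DESeq2 1.42.0 was an alternative. Ratios were compared with exact permutation tests over 70 arrangements (scipy 1.17.1). The planned log2 ratio could not be formed for miR-18a-5p and miR-19a-3p, which had libraries at 0. The edgeR step was tested on simulated data. Alternatives covered scaling, filter, test, replicate block, unwanted variation and leaving out each library. Intervals of log2 fold changes come from the edgeR fit and include the spread between libraries, whereas the exact intervals of arm shares and the floors cover counting error only, since no molecular identifiers were described. Sequences and positions are from RefSeq (GRCm38.p6, 29 of 31 names matched), and host genes are from GENCODE vM21 (GRCm38, the build of mm10).

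The members, lists and named miRNAs (the 9 members, their opposite arms, miR-106a-363, the seed relatives and the 5 miRNAs most like the members) were chosen with earlier results of these data known.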

Additional observations from a re-analysis of the deposited data

How the results depend on the processing

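The number of members called was 0 under all 15 alternatives to the edgeR fit, including the replicate block and DESeq2. DESeq2 could not have called miR-18a-5p, miR-20a-5p, miR-19b-3p or miR-106b-5p, for which it gave no adjusted p. The number called over all miRNAs was 11, and it was 19 with the replicate block, 28 with a factor of unwanted variation and 6 to 19 when 1 library was left out. Leaving out a library gave log2 fold changes of -0.10 to 0.20 for miR-17-5p, -0.61 to 0.32 for miR-19b-3p, -0.0241 to 0.0235 for miR-92a-3p, -0.27 to 0.33 for miR-106b-5p and -0.0495 to 0.0471 for miR-25-3p, ranges that include 0, and the same held for miR-17-3p (-0.23 to 0.0943), miR-92a-1-5p (-0.12 to 0.0002) and miR-25-5p (-0.0869 to 0.15). With library totals only, no filter and a filter over 5 CPM, the value was -0.0200, -0.0080 and -0.0122 for miR-92a-3p, and -0.0166, -0.0065 and -0.0102 for miR-25-3p. With a factor of unwanted variation it was -0.10 for miR-19b-3p. The cause of these sign changes around 0 was not tested. miR-18a-5p lost the filter in 5 of 15 alternatives. miR-93-5p stayed above 0 (0.10 to 0.19) and miR-20a-5p below 0 (-0.55 to -0.25) in all 15, without a call.

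The labels did not state whether the replicate numbers pair the libraries. Same-numbered libraries had correlations of 0.171, -0.345, 0.101 and -0.183 between their deviations. Vehicle replicates 1 and 3 matched their own number best, whereas replicates 2 and 4 did not, and these values do not decide the pairing. With the replicate block miR-18a-3p was called (log2 fold change 0.45, edgeR adjusted p = 0.0493).

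For the ratios within a cluster, leaving out a library gave differences of -0.0872 to 0.23 for miR-17-5p, -0.56 to 0.24 for miR-19b-3p, -0.22 to 0.0563 for miR-92a-3p, -0.34 to 0.40 for miR-106b-5p, -0.53 to -0.23 for miR-20a-5p, 0.098 to 0.17 for miR-93-5p and -0.18 to -0.084 for miR-25-3p. With miR-19b-3p and miR-92a-3p left out of the rest, the difference was -0.0231 for miR-17-5p, -0.58 for miR-20a-5p and -0.23 for miR-19b-3p. No ratio passed the threshold in any alternative, but 3 against 4 libraries cannot give a p under 0.0571, nor 4 pairs one under 0.125.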

Other observations

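The spread of the members between libraries was set beside the spread that counting alone gives. For miR-92a-3p the coefficient of variation was 0.767% with vehicle and 5.30% with IL-1β, where counting alone gives 0.292% and 0.334%. For miR-25-3p it was 6.58% and 4.53% (counting 3.25% and 3.67%), and for miR-93-5p 7.22% and 6.81% (counting 5.66% and 6.13%). For miR-20a-5p the spread, 12.7% and 27.97%, was below that of counting, 30.3% and 38.6%. It was above counting for miR-17-5p (26.9% and 23.71%, counting 16.62% and 17.96%) and miR-19b-3p (46.42% and 69.92%, counting 43.55% and 51.45%). For miR-106b-5p it was above with vehicle (74.03%, counting 42.88%) and below with IL-1β (25.37%, counting 49.44%). Whether the spread of miR-92a-3p differed between the groups was not tested.

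Among the 195 miRNAs that averaged 50 counts or more, the non-members whose log2 abundance over the 8 libraries was most like the mean profile of the 9 members were miR-1249-3p (Pearson r = 0.844), miR-3102-3p.2-3p (0.754), miR-423-3p (0.749), miR-339-5p (0.738) and miR-136-3p (0.734). These are descriptions over 8 libraries with no p. miR-1249-3p was itself called (log2 fold change 0.40, edgeR adjusted p = 0.0323). The mean profile weighs most the members that varied most, with an SD on the log2 scale of 1.14 for miR-18a-5p, 0.759 for miR-19b-3p and 0.731 for miR-19a-3p, all near the counting limit, against 0.0503 for miR-92a-3p, 0.0754 for miR-25-3p and 0.123 for miR-93-5p. Single members differed in their r with this mean profile, which was 0.761 for miR-19b-3p, 0.718 for miR-18a-5p, 0.543 for miR-19a-3p, 0.344 for miR-17-5p, -0.139 for miR-106b-5p, -0.141 for miR-93-5p, -0.225 for miR-25-3p, -0.34 for miR-20a-5p and -0.704 for miR-92a-3p. The well-counted members had r = 0.350 (miR-93-5p with miR-25-3p), 0.482 (miR-92a-3p with miR-93-5p) and 0.351 (miR-92a-3p with miR-25-3p) with each other. miR-92b-3p, which shares the seed of miR-92a-3p and miR-25-3p, had r = 0.371 with the former and -0.619 with the latter.

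In 0 of 44 groups of 4 libraries examined did 1 library lie beyond Dixon's 95% limit, which chance alone passes in about 1 group in 20. This does not cover miR-19a-3p, which was at 1.06 normalized CPM in vehicle replicate 1 and at 0 in vehicle replicates 2 to 4.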
